A study of Mus musculus with 4 samples.

Results

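Immunity-related GTPases (IRGs) are a family of interferon-inducible proteins that in mice defend single cells against bacteria and parasites living inside vacuoles. The 6 genes described here, Irgm1, Irgm2, Igtp, Iigp1, Tgtp1 and Tgtp2, were picked by symbol from the 27179 genes of the count table, and all 6 were found there and had enough counts to be tested. Plasmacytoid dendritic cells (pDCs), which detect viral RNA and DNA taken up into endosomes and are known for making type I interferon, were grown from C57BL/6 mouse bone marrow for 8 days in Flt3 ligand and exposed for 24 h to imiquimod at 1 µg/ml, a ligand of the receptor TLR7. Sorting by SiglecH and CD11b was followed by a division on BFP, a blue fluorescent reporter of the chemokine gene Cxcl10, which gave 2 BFP-positive and 2 BFP-negative libraries. All 4 libraries come from stimulated cultures, and no unstimulated library was analysed here. The construction of the reporter, its gate and whether low or high CD11b was selected are not given in the sources used here. For the BFP-negative samples the population label reads CXCL10-positive while the design text reads CXCL10-negative, so they were grouped by BFP alone. The titles give the BFP-negative and the BFP-positive library of a replicate number the same code, and replicates 1 and 2 different codes. The labels do not say whether a code marks an animal, a culture or a sort, so p-values measure only the spread between these libraries, which may be technical.

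IRG proteins fall into a pair of classes named after a stretch of their nucleotide-binding site. The GKS class, to which Iigp1 (Irga6), Tgtp1 and Tgtp2 (Irgb6) belong, holds the effectors that gather on the membrane of a pathogen's vacuole and disrupt it. The GMS class, Irgm1, Irgm2 and Igtp (Irgm3), sits on the cell's own membranes and keeps the effectors inactive there. In mouse cells the family is known to be induced strongly by interferon gamma, through gamma-activated sites (GAS), and also by type I interferon, through interferon-stimulated response elements (ISRE).

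By the RefSeq annotation of GRCm38, 5 of the 6 genes lie on chromosome 11. Irgm1 (Entrez gene 15944, 48865245 to 48871420), Tgtp1 (Entrez gene 21822, 48985329 to 48992246) and Tgtp2 (Entrez gene 100039796, 49057196 to 49064212) share a stretch of 199.0 kb. Igtp (Entrez gene 16145, 58199556 to 58207592) and Irgm2 (Entrez gene 54396, 58214977 to 58222783) are neighbours within 23.2 kb. These positions are whole genes, introns included. Iigp1 lies apart from them.

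The promoter windows of the 5 genes on chromosome 11 are shown because each holds a match to at least 1 of the elements through which this family is known to be induced. The promoter of Iigp1 was not searched. RefSeq promoters of GRCm38.p6, running from 250 bases before to 50 bases after the gene start, were searched on both strands for an ISRE core, GAAANNGAAA or its reverse complement TTTCNNTTTC, and for a GAS element, TTCNNNGAA, which is its own reverse complement. The sequences are given on the strand of the gene, with every match in capitals and 30 bases on either side in lower case.
Irgm1, chr11:48871405-48871480, minus strand: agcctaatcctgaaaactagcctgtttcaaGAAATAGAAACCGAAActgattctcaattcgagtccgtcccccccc
Igtp, chr11:58199481-58199561, plus strand: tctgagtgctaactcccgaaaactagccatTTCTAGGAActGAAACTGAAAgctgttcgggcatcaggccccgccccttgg
Irgm2, chr11:58214872-58214952, plus strand: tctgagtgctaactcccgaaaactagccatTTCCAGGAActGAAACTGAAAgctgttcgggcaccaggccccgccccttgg
Tgtp1, chr11:48992284-48992364, minus strand: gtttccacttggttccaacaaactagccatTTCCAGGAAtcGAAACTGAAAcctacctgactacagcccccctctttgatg
Tgtp2, chr11:49064243-49064323, minus strand: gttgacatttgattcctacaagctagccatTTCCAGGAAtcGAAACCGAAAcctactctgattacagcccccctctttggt

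In Igtp, Irgm2, Tgtp1 and Tgtp2 a GAS match stands directly before an ISRE match, and no match of one overlaps the other. The ISRE match begins 34 bases before the gene start in Igtp, 64 in Irgm2, 77 in Tgtp1 and 70 in Tgtp2. In Irgm1 the search found 2 ISRE matches, which overlap each other, the first beginning 30 bases before the gene start, and no GAS match in this window. Of the 32851 promoters in the table, 3.44% held an ISRE match, 8.30% a GAS match and 0.183% both with starts at most 40 bases apart. A match is a run of letters and not a measured binding site. The windows of Igtp and Irgm2, which did not pass the test below, and of Tgtp1 and Tgtp2, which did, hold the same pair of matches.

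Levels below are counts per 1000000 (CPM) after TMM scaling, summarised per group as mean ± SD (n = 2), and a fold change divides the BFP-positive by the BFP-negative level. A gene was called when its p, adjusted by Benjamini-Hochberg over all 11706 tested genes in edgeR's quasi-likelihood test, was under 0.05. Of the 6 genes, 4 were called higher in BFP-positive cells and none lower, where 7.60% of all tested genes were called higher and 3.51% lower. The members were chosen with earlier results of these data known, so these shares describe them and do not test them. Among the genes called, Tgtp1 and Tgtp2 share most of their transcript sequence and are not separate results. No member had an unadjusted p under 0.05 in the downward direction, and DESeq2 and limma-voom also called 0 members lower. In 5 of the 6 genes both BFP-positive libraries lay above both BFP-negative ones, as in 27.1% of all tested genes. The median log2 fold change of the 6 genes was 0.74, beside -0.02 over all tested genes. In bulk samples, more cells that transcribe a gene and more transcript per cell cannot be told apart.

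**Figure D1:**
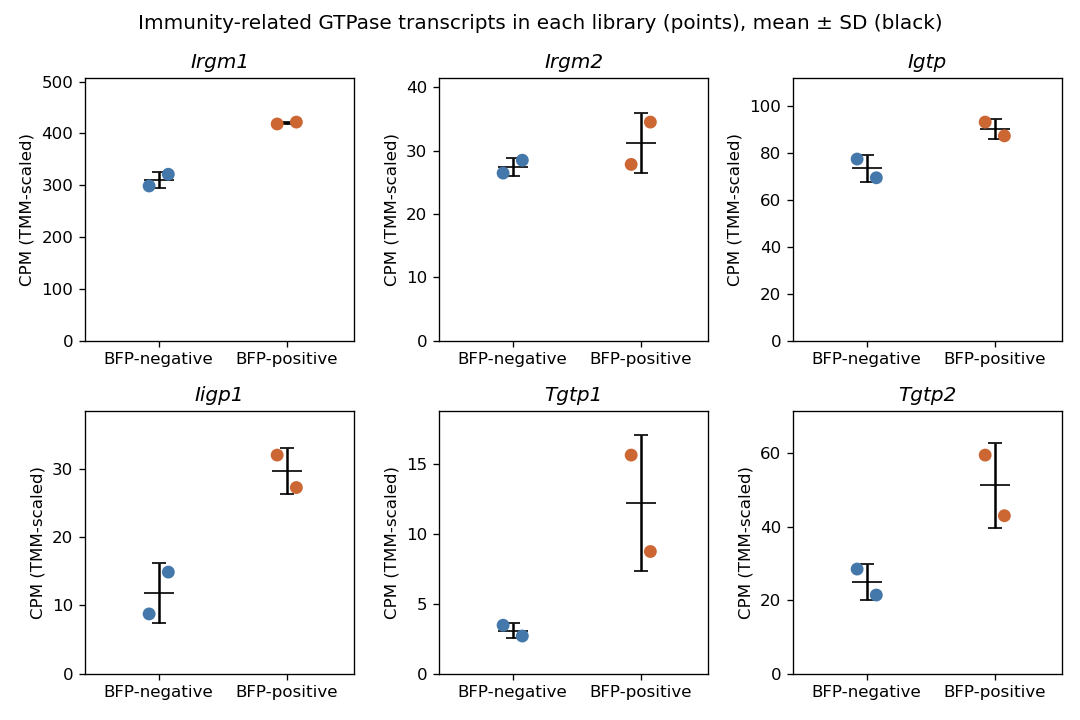
Each panel plots 1 gene on its own linear axis from 0, in TMM-scaled CPM, with a point per library (blue BFP-negative, orange BFP-positive; replicate 1 on the left) and mean ± SD in black, n = 2. The points of the groups are apart in every panel but that of Irgm2, where BFP-positive replicate 1 (27.8 CPM) lies below BFP-negative replicate 2 (28.5 CPM).

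Among the 6 genes, the largest fold changes were those of the GKS effectors. Iigp1 (Entrez gene 60440, chromosome 18, 60373616 to 60392634), the best studied effector of the family, was at 8.76 and 14.9 CPM in BFP-negative replicates 1 and 2 and at 32.1 and 27.3 CPM in BFP-positive replicates 1 and 2. The lowest BFP-positive library was thus above the highest BFP-negative one. Its mean of 11.8 ± 4.35 CPM became 29.7 ± 3.37 CPM, a rise of 2.51-fold (log2 fold change 1.33, SE 0.31, adjusted p = 0.0231 in edgeR). Behind these levels stand 109 and 189 counts in the BFP-negative libraries and 374 and 332 in the BFP-positive ones.

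Tgtp1 and Tgtp2 encode nearly the same effector, an Irgb6 protein that binds early to the vacuole of Toxoplasma. Tgtp2 was at 28.4 and 21.4 CPM in BFP-negative cells and at 59.5 and 43.0 CPM in BFP-positive cells. It rose 2.06-fold (log2 fold change 1.04, SE 0.24, adjusted p = 0.0222 in edgeR). The groups were apart, with BFP-positive replicate 1 standing above replicate 2.

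Tgtp1 was the least abundant member, at 3.46 and 2.68 CPM in BFP-negative cells and 15.6 and 8.73 CPM in BFP-positive cells. It rose 3.96-fold, the largest change of the 6 (log2 fold change 1.98, SE 0.47, adjusted p = 0.0227 in edgeR). Again BFP-positive replicate 1 was the higher of the pair, by a larger ratio than in the other members. The counts were 43 and 34 against 182 and 106.

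The Tgtp copies cannot be fully told apart by short reads. Of all distinct 50-base windows in the GENCODE M21 transcripts of Tgtp1, 81.2% occur also in a transcript of another gene, nearly all of them in Tgtp2, and for Tgtp2 the share is 86.6%. How the counting treated reads that match several places is not stated. The separate values of these genes and the level of their sum are therefore uncertain. With their counts summed into 1 feature before the fit, the pair was at 31.9 and 24.1 CPM in BFP-negative cells and 75.1 and 51.7 CPM in BFP-positive cells. The sum rose 2.27-fold (log2 fold change 1.18, SE 0.24, adjusted p = 0.0117 in edgeR). Tgtp1 supplied 10.8% and 11.1% of the summed counts in BFP-negative cells and 20.8% and 16.9% in BFP-positive cells, a shift that was not tested and that rests on the bases where the copies differ.

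The fold changes of the GMS regulators were smaller. Irgm1, which is known from mice to be needed for resistance to several intracellular bacteria and for the survival of blood stem cells, was the most abundant member, at 298 and 321 CPM in BFP-negative cells and 418 and 422 CPM in BFP-positive cells. The replicates lay close together and the groups were apart. Irgm1 rose 1.36-fold (log2 fold change 0.44, SE 0.12, adjusted p = 0.0407 in edgeR), the smallest change among the members called. With library totals alone in place of TMM the log2 fold change was 0.37 and the call was lost (adjusted p = 0.0642).

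Igtp, known for its place on the endoplasmic reticulum and on lipid droplets, was at 77.2 and 69.2 CPM in BFP-negative cells and 92.9 and 87.1 CPM in BFP-positive cells. The groups were apart, but the difference missed the threshold (log2 fold change 0.30, SE 0.16, adjusted p = 0.300 in edgeR). Irgm2, a regulator found on the Golgi, was at 26.4 and 28.5 CPM in BFP-negative cells and 27.8 and 34.5 CPM in BFP-positive cells. Its groups overlapped and it did not pass (log2 fold change 0.18, SE 0.23, adjusted p = 0.696 in edgeR). Igtp and Irgm2 share some sequence too, with 11.8% of the 50-base windows of Igtp and 7.83% of those of Irgm2 found in another gene's transcripts. Their annotated exons also overlap by 162 bases on the same strand. For Irgm1 and Iigp1 the shared windows were 0.379% and 1.69%.

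**Figure D2:**
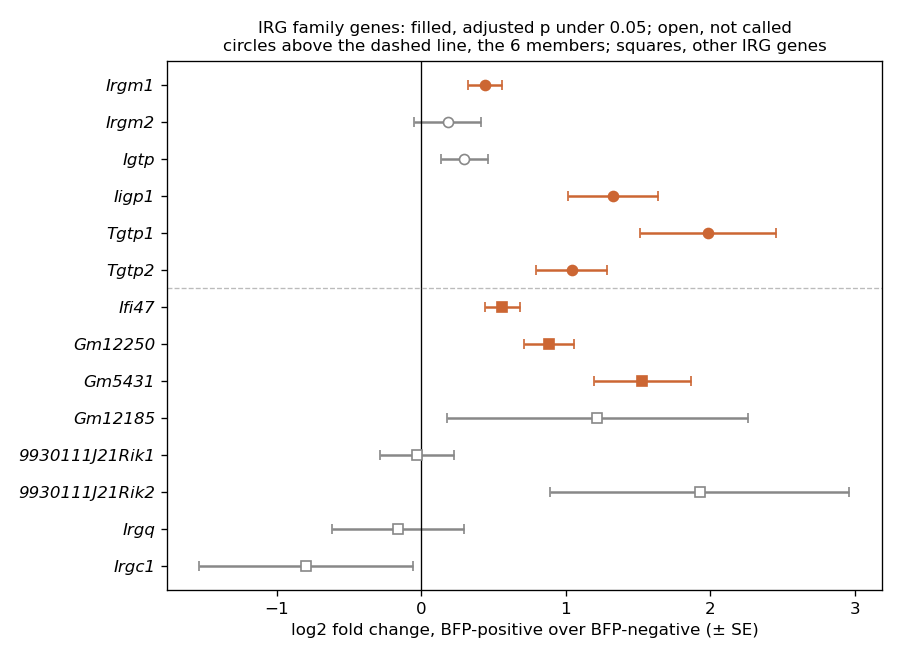
The log2 fold change (BFP-positive over BFP-negative, horizontal axis, bars ± SE) is plotted for the 6 members (circles, above the dashed line) and for 8 other tested genes of the family (squares), filled where the adjusted p was under 0.05. Among the members, the GKS genes Iigp1, Tgtp1 and Tgtp2 lie between 1.04 and 1.98 and the GMS genes between 0.18 and 0.44. The GKS genes Ifi47 and Gm12250, among the squares, lie between these ranges at 0.56 and 0.88.

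Among the other IRG genes of the table, 8 of 11 were tested, and 3 were called higher and none lower. Ifi47 (Irgd), a GKS gene next to Tgtp2 on chromosome 11, was at 274 and 267 CPM in BFP-negative cells and 394 and 404 CPM in BFP-positive cells. It rose 1.48-fold (log2 fold change 0.56, SE 0.12, adjusted p = 0.0133 in edgeR). Gm12250 (Irgb10), an effector known to act with guanylate-binding proteins on bacteria in the cytosol, lies next to Igtp. It was at 49.6 and 54.6 CPM against 103 and 88.8 CPM, a rise of 1.84-fold (adjusted p = 0.00909 in edgeR). Gm5431, at 6.35 and 10.6 against 23.9 and 25.3 CPM, rose 2.89-fold (adjusted p = 0.0158 in edgeR). Without BFP-positive replicate 1 the calls of Ifi47 and Gm12250 were lost (adjusted p = 0.0612 and 0.0541 in edgeR), and without BFP-positive replicate 2 that of Ifi47 (0.0875).

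The other family members gave no call. 9930111J21Rik1 was at 22.9 ± 2.91 and 22.4 ± 1.72 CPM. Gm12185 had 2 and 32 counts in the BFP-negative and 30 and 45 in the BFP-positive libraries, and 9930111J21Rik2 had 3 and 6 against 17 and 16. Gm12185, 9930111J21Rik1 and 9930111J21Rik2 share sequence with Tgtp2, and Gm12185 also with Tgtp1. The annotated exons of Gm12185 and Tgtp1 overlap by 223 bases on the same strand. Irgq (6.89 ± 0.936 and 6.15 ± 1.90 CPM) and Irgc1 (3.14 ± 1.25 and 1.80 ± 0.363 CPM), outlying relatives of the family, did not pass either. Gm4951, which lies near Iigp1, had no count in either BFP-negative library and 33 and 9 in the BFP-positive ones, and was too low to be tested. A count of 0 allows up to 3 counts, or 0.239 to 0.250 CPM in a BFP-negative library, for counting error only.

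Levels of different genes can be compared only per length, for which the authors' deposited log2 RPKM values were taken back to linear RPKM. Irgm1 led in every library, at 142 ± 4.71 RPKM in BFP-negative cells and 184 ± 0.161 RPKM in BFP-positive cells. Igtp followed in every library at 37.0 ± 3.53 and 43.5 ± 2.31 RPKM. Tgtp1 was last throughout, at 1.12 ± 0.220 and 4.25 ± 1.73 RPKM, but the places of Tgtp1 and Tgtp2 rest on their uncertain counts. Between them the order varied. In BFP-negative cells Tgtp2 (9.06 ± 1.98 RPKM) and Irgm2 (7.99 ± 0.270 RPKM) did not differ beyond their spread, and they changed places between the replicates. In BFP-positive cells Tgtp2 stood at 17.8 ± 4.17 RPKM, while Iigp1 (9.29 ± 1.12 RPKM) and Irgm2 (8.66 ± 1.25 RPKM) overlapped. Iigp1 was below Irgm2 in both BFP-negative libraries, at 3.86 ± 1.35 RPKM.

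Summed per library, the 3 GMS members outweighed the 3 GKS members in each of the 4 libraries, by less in BFP-positive cells. The ratio of their summed RPKM was 12.7 and 14.0 in BFP-negative cells and 6.54 and 8.93 in BFP-positive cells. The groups did not overlap, and the ratio, a sum over chosen members, is given without a test. It holds for these members only. Because the counting of reads shared by the Tgtp copies is not stated, the GKS sum, the ratio and the shares are uncertain. With Ifi47 and Gm12250, also GKS genes, added to the GKS side after their values were seen, the order turned and the ratio was 0.915 and 0.967 in BFP-negative and 0.778 and 0.804 in BFP-positive cells. The GMS sum was 187 ± 1.45 and 236 ± 1.21 RPKM and that of the 3 GKS members 14.0 ± 0.854 and 31.3 ± 7.02 RPKM. The GKS members thus held 6.98% ± 0.445 of the members' RPKM in BFP-negative cells and 11.7% ± 2.26 in BFP-positive cells. The share of Irgm1 alone was 70.6% ± 2.13 and 68.9% ± 2.06.

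**Figure D3:**
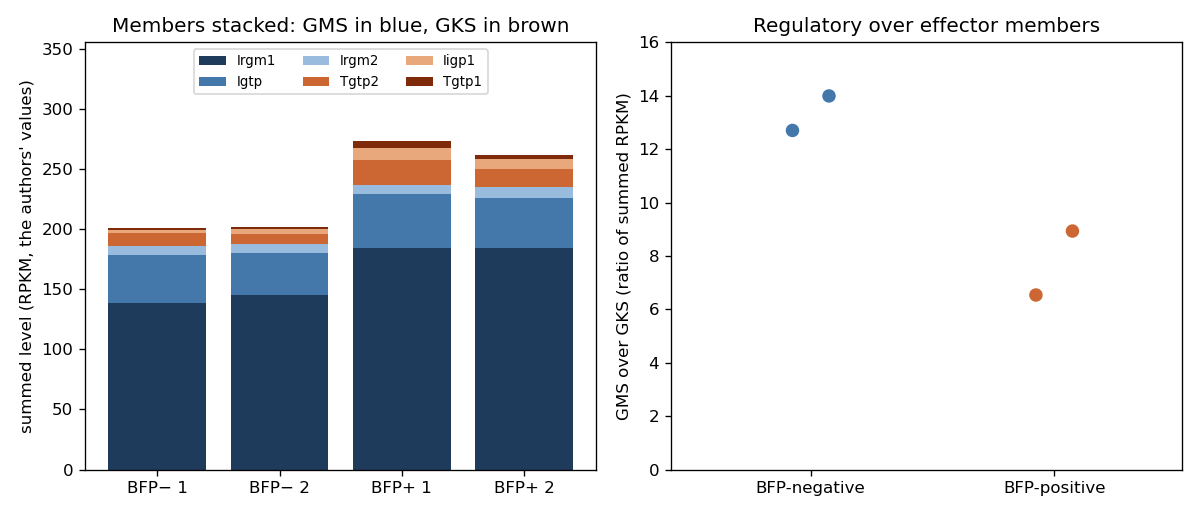
Left, the authors' RPKM of the 6 members stacked per library (linear axis from 0; GMS genes in blue, GKS genes in brown). Right, the ratio of the GMS to the GKS sum of these members per library, 12.7 and 14.0 in BFP-negative and 6.54 and 8.93 in BFP-positive cells.

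The calls depended on single libraries, and most on BFP-positive replicate 1. Without it the log2 fold changes of all 6 members stayed above 0, yet 0 members were called, with 4 at an unadjusted p under 0.05. The log2 fold change was then 0.45 for Irgm1 (adjusted p = 0.175 in edgeR), 1.21 for Iigp1 (0.0662), 1.51 for Tgtp1 (0.223) and 0.79 for Tgtp2 (0.139). Without BFP-negative replicate 1, 2 members were called, Tgtp1 and Tgtp2, while Irgm1 (0.121) and Iigp1 (0.0693) were not. Tgtp2 lost its call without BFP-negative replicate 2 (0.0593) and Irgm1 without BFP-positive replicate 2 (0.198). With limma on the authors' log2 RPKM values 0 members were called, and the same 4 genes had adjusted p = 0.0505 to 0.0869. A fit that leaves a group with 1 library assumes that this library varies like the others. Igtp and Irgm2 were called under none of the alternatives tried, with log2 fold changes of 0.23 to 0.38 and 0.02 to 0.33.

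**Figure D4:**
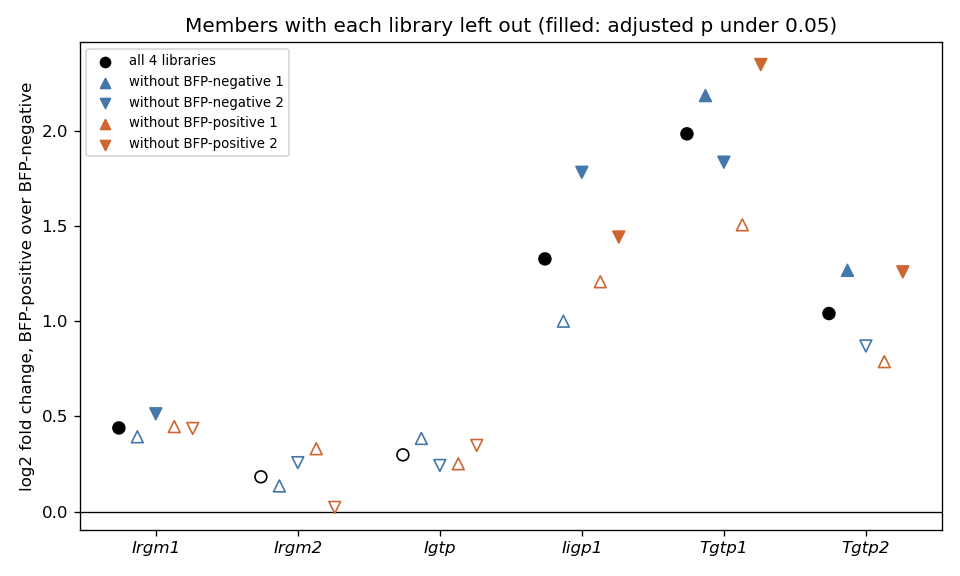
The vertical axis gives the log2 fold change of each member (BFP-positive over BFP-negative) with all 4 libraries (black) and with each library left out in turn, filled where the adjusted p was under 0.05. All points are above 0, and no point is filled without BFP-positive replicate 1.

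Genes that work with the IRG proteins, from lists given by symbol, moved in part. Of 18 interferon signalling genes tested, 5 were called higher (Ifngr1, Irf1, Socs1, Socs3 and Usp18) and none lower, with a median log2 fold change of 0.32. Without BFP-positive replicate 1 the number was 3, with Socs1 and Usp18 lost. Irf1, a transcription factor that drives many interferon gamma responses, rose 1.88-fold from 99.2 ± 5.78 to 187 ± 2.09 CPM (adjusted p = 0.00266 in edgeR). Socs3, a feedback inhibitor of cytokine receptors, rose 1.93-fold from 88.7 ± 4.06 to 171 ± 24.2 CPM. Ifngr1, the ligand-binding chain of the interferon gamma receptor, rose too, with a log2 fold change of 0.98. Ifng itself had 104 and 68 counts in the BFP-negative and 83 and 44 in the BFP-positive libraries and did not pass (log2 fold change -0.35, adjusted p = 0.74 in edgeR).

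Of 9 tested guanylate-binding proteins, large GTPases that act beside the IRGs, 2 were called higher and 7 not called, with a median log2 fold change of -0.19. Gbp2 went from 2.86 ± 0.412 to 32.0 ± 0.647 CPM and Gbp3 from 1.11 ± 0.323 to 14.9 ± 3.47 CPM (adjusted p = 0.000121 and 0.000901 in edgeR). Of the other interferon-inducible GTPases, the antiviral genes Mx1 (12.8 ± 2.70 and 10.2 ± 1.90 CPM) and Mx2 (2.59 ± 1.10 and 1.39 ± 0.0185 CPM) were tested and not called. The Atg8 conjugation genes, whose products guide IRG proteins to the right membranes, gave 0 calls of 15 in edgeR, DESeq2 and limma-voom, with 2 at an unadjusted p under 0.05. These were Gabarapl1 (31.8 ± 0.0287 and 18.8 ± 5.01 CPM) and Gabarapl2 (55.3 ± 2.42 and 77.5 ± 4.66 CPM). The ubiquitin and adaptor genes of marked vacuoles gave 0 calls of 8 in the same 3 tools, with Trim21 (26.5 ± 3.95 and 39.0 ± 4.38 CPM) and Sqstm1 (650 ± 68.0 and 534 ± 34.7 CPM) at an unadjusted p under 0.05. With the replicate number as a block, Sqstm1, an adaptor that links ubiquitin to autophagy, was called lower (log2 fold change -0.28, SE 0.0798, adjusted p = 0.0382 in edgeR).

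Genes around the members were counted as well. Of 19 tested genes within 200 kb of a member, other IRG genes left out, none was called higher and 1 lower (5.26% called). Over all tested genes 7.60% were called higher and 3.51% lower, and 19 genes are too few to tell apart from these shares. The median log2 fold change of the 19 was -0.10. The gene called lower, named after its value was seen, was Gemin5, which encodes an RNA-binding protein of the SMN complex. It lies near Gm12250 and Igtp (log2 fold change -1.23, SE 0.31, adjusted p = 0.0287 in edgeR). Its adjusted p was 0.0648 when BFP-negative replicate 2 was left out and 0.133 when BFP-positive replicate 1 was (edgeR).

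Profiles over the 4 libraries were compared with the mean of the 6 members by Euclidean distance between log2 CPM values centred on each gene. The 5777 genes ranked had a mean of at least 20 CPM. Members and genes named by a Gm number or Rik, such as the IRG gene Gm12250, were left out. Nearest of those ranked was Eepd1, at 0.0999. Nmi, an interferon-inducible gene, and Spc24, a kinetochore gene, followed at 0.103 each. Next were the carbonic anhydrase gene Car13 and Tcf19, both at 0.110. With 4 libraries in 2 groups, many genes that rise by a similar amount lie this near, so the order is a description. These 5 genes rose 1.71-fold to 1.96-fold with all libraries. The calls of Eepd1 and Tcf19 were lost whichever library was left out (adjusted p = 0.0736 to 0.217 in edgeR), and that of Nmi without BFP-positive replicate 1 (0.0556).

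The libraries held 11868254 to 12570117 counts, and 1 count was worth 0.0796 to 0.0843 CPM. Cxcl10, the gene behind the sort, was at 0.870 ± 0.889 and 12.7 ± 0.0787 CPM, higher in the libraries labelled BFP-positive. Siglech was at 613 ± 2.69 and 803 ± 25.04 CPM, and Itgam, which encodes CD11b, at 2.93 ± 1.65 and 10.1 ± 0.712 CPM. Markers of other cell types moved beside the IRG genes. Of 14 conventional dendritic cell markers tested 6 were called higher (Zbtb46, Itgax, Naaa, Clec4n, Clec4a2 and Clec4a4) and none lower. The other 8, Xcr1, Clec9a, Clec10a, Sirpa, Cd24a, Batf3, Irf4 and Id2, were not called. With limma on the authors' log2 RPKM values 3 were called, with Zbtb46, Itgax and Clec4a2 lost. The 14 markers summed to 756 to 778 CPM by library totals in BFP-negative and 1020 to 1083 CPM in BFP-positive cells. Of 10 monocyte and macrophage markers tested 6 were called higher and 2 lower, with sums of 665 to 788 and 1370 to 1502 CPM. Ly6c2 made up the largest part of these sums in both groups, at 339 ± 56.3 and 837 ± 84.9 CPM (TMM-scaled). The rise of the sums is thus mostly that of Ly6c2, which was already abundant in BFP-negative cells. Mertk had no count in any library. Csf1r had 3 and 0 counts in the BFP-negative and 265 and 398 in the BFP-positive libraries, and Fcgr1 3 and 14 against 198 and 370. Cd14 rose from 10.1 ± 0.373 to 97.6 ± 2.47 CPM and Lyz2 from 1.71 ± 0.146 to 27.8 ± 14.7 CPM, with Ly6c2 and Ccr2 also called higher, and these differences of Cd14 (9.69-fold) and Lyz2 (16.1-fold) exceeded those of the 6 IRG genes. Adgre1 (30.2 ± 7.54 and 8.45 ± 2.48 CPM) and Apoe (13.9 ± 4.49 and 1.31 ± 0.217 CPM) fell. Of 14 pDC markers 3 were called higher and 4 lower, with sums of 23051 to 26744 and 17534 to 18561 CPM, and without BFP-positive replicate 2 these numbers were 1 and 2. Ly6d made up most of these sums, and the other 13 summed to 5149 and 5614 CPM in BFP-negative and 5198 and 5314 CPM in BFP-positive cells, where the groups overlapped. Of 7 B cell markers tested none was called higher and 2 lower, with sums of 2891 to 2905 and 2227 to 2268 CPM. Of 12 T and NK cell genes, 4 were tested, with sums of 1445 to 1561 and 1032 to 1090 CPM made up almost wholly by Cd8a, which pDCs also express and which was the only one called (lower, and only with all libraries or without BFP-negative replicate 2 among the fits that leave a library out). Cd3g and Eomes had no count. Nkg7 had 0 and 5 counts against 34 and 20 (unadjusted p = 0.0215, adjusted p = 0.119 in edgeR), Tbx21 7 and 24 against 22 and 47, and Ncr1, too low to be tested, 0 and 0 against 8 and 22. The part of these cell types in the IRG differences was not tested.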

How the data were processed

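RNA was measured in 4 SMART-Seq libraries, a kit that amplifies cDNA by PCR without marking strand or molecules, per the labels' protocols. The authors deposited raw counts per gene and, for each library, log2 RPKM values, which correct for gene length and depth. Subread, featureCounts and limma, and the builds GRCm38 and mm10, are named in the submitters' processing notes, without versions. Genes were filtered with filterByExpr (minimum count 10, minimum total 15) and fitted with edgeR 4.0.16 (R 4.3.3; TMM, a model of the group alone with 2 residual degrees of freedom, two-sided), and the SE is the log2 fold change divided by the square root of F. Alternatives used DESeq2 1.42.0 and limma 3.58.1. The procedure was tested on simulated data. The replicates were separate libraries by their counts (chi-square per degree of freedom 18.9 for the BFP-negative pair and 14.9 for the BFP-positive pair). Of the tested genes, 11453 had a RefSeq position. The members and lists were chosen with earlier results of these data known. Named genes are the members, other IRG genes with a count and the 2 genes of smallest p in each pathway list. The genes of the sort and the 5 nearest profiles of the ranking above were also named. Further genes were named to account for calls. Some genes of the lists are not reported here. Intervals and limits of counting cover counting error only, since PCR copies are not independent molecules.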

Additional observations from a re-analysis of the deposited data

How the results depend on the processing

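The direction of all 6 members held in every alternative run. Members called higher numbered 4 with all libraries, 0 to 3 with a library left out, and 0 with limma on the authors' log2 RPKM values, where 4 members had an unadjusted p under 0.05 and the lowest adjusted p was 0.0505. Their number was 3 by library totals alone and, of 5 features, 3 with Tgtp1 and Tgtp2 summed, and 4 in the other fits. Over all genes, 890 were called higher and 411 lower with all libraries, and 559 to 921 and 245 to 408 with a library left out. By library totals alone 58.6% of calls were higher, against 68.4%. Replicate numbers are shared between the groups, and same-numbered libraries share a code in their titles, but no label says what it marks, and their deviations correlated at 0.0594. With the replicate number as a block, 1140 genes were higher and 760 lower, 4 members were called, 2 genes near the members, and Sqstm1 (lower, adjusted p = 0.0382). Called genes near the members were 1 in the analysis reported, 2 by library totals alone, with DESeq2 or in a window of 500 kb, 0 with limma on log2 RPKM values (3 at an unadjusted p under 0.05), and 0 to 1 with a library left out. The ratio of the GMS to the GKS members was 10.3 (BFP-negative) and 5.95 (BFP-positive) by CPM, and 51.6 and 25.6 without Tgtp1 and Tgtp2. With Ifi47 and Gm12250 added to the GKS genes, an alternative chosen after seeing the data, it was 0.941 and 0.791. With single libraries it ranged from 12.7 to 14.0 and from 6.54 to 8.93. Small differences changed sign for Irgq (log2 fold change -0.52 to 0.12 with a library left out) and for 9930111J21Rik1 (-0.15 to 0.13, and 0.05 without BFP-positive replicate 1). The calls of Ifi47 and Gm12250 were lost without BFP-positive replicate 1 (adjusted p = 0.0612 and 0.0541 in edgeR). Counts of calls in the other lists under these settings were added after seeing the data. The cause of these changes was not tested.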

Other observations

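Promoters with the elements seen in the members were looked up among all tested genes. Of 353 tested genes with an ISRE core in the promoter window, 54 were called higher (15.3%) and 6 lower (1.70%), beside 7.60% and 3.51% of all tested genes. Of 744 with a GAS match, 70 were higher (9.41%) and 25 lower (3.36%). Of 27 tested genes with both matches at most 40 bases apart, 5 were higher and none lower, with a median log2 fold change of 0.28. These 5 were Tgtp1, Tgtp2, the IRG gene Gm12250, the interferon-induced membrane protein gene Ifitm3, and Myd88, which encodes the adaptor of TLR7. The lists include the members themselves, and the shares were not tested against each other.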
